A study of Mus musculus with 4 samples.

Results

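Among the cells of MYCN-driven mouse brain tumors, 236 cells carried the RNAs of mature oligodendrocytes and no detected RNA of the tumor transgene. These were 2.57% of the 9185 cells kept from 4 tumors. A cell was kept with 1000 to 40000 unique molecular identifiers (UMIs, 1 per captured mRNA molecule) and under 25% of them from mitochondrial genes. It was a member with at least 2 UMIs of Mal, at least 1 of Mog and at least 1 UMI from each of 2 of the genes Ermn, Mag and Mobp. It also had to hold 0 UMIs of FLUC and humanNMYC, 0 of the proliferation genes Mki67 and Top2a, and at most 1 UMI summed over C1qa, C1qb, Cldn5 and Rgs5, which mark microglia, endothelial cells and pericytes.

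The tumors came from hGFAP-cre::TP53Fl/Fl::lsl-MYCN mice, 2 at 43 days (P43, mouse 4 and mouse 5) and 2 at 70 days (P70, mouse 6 and mouse 7). All 4 mice carry the same alleles, and no untreated or wild-type brain is among the libraries. Cre under the human GFAP promoter, active in radial glia and so in the ancestors of many neurons and glia, removes Trp53 and switches on human MYCN together with firefly luciferase (FLUC) from the Rosa26 locus. A FLUC or humanNMYC UMI, called a reporter UMI here, is therefore RNA of the active transgene, from the cell itself or from free RNA in the droplet. Tissue was digested with papain, red blood cells were lysed and dead cells were sorted out, and the oligodendrocytes described are those that survived these steps. The P77 and P92 libraries were not analysed here.

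Each mouse gave 1 library of 3′ single-cell RNA sequencing, and the library is the replicate. Mouse 4 had 3430 barcodes and 15044263 UMIs, mouse 5 had 1739 and 13106786, mouse 6 had 2972 and 18698291, and mouse 7 had 3693 and 40621958. Pairs of libraries shared between 1 and 3 cell barcodes, and 0 barcodes of member cells occurred in another library. Both P43 libraries went against their labelled sex. Uty, Kdm5d, Ddx3y and Eif2s3y, all Y-linked, together gave 142 UMIs per 1000000 (CPM) in all other kept cells of mouse 4, labelled female, and 0.396 CPM in mouse 5, labelled male. The member cells held 215 CPM of these genes in mouse 4 and 0 in mouse 5. Both libraries are of one age, so the age groups stay as labelled, and sex was used in no comparison. The P70 libraries matched their labels, with 164 in mouse 6, labelled male, and 0 in mouse 7, labelled female.

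Oligodendrocytes wrap axons of the central nervous system with myelin, a stack of membrane rich in cholesterol and galactolipids and held together by a few very abundant proteins. They arise from precursor cells (OPC), pass a premyelinating stage and then express the full set of myelin genes. Of the genes in the rule, Mal encodes a raft protein of compact myelin, Mog an immunoglobulin-like protein of the outermost lamella, and Mag an adhesion protein facing the axon. Mobp encodes a basic protein of compact myelin and Ermn a cytoskeletal protein of mature oligodendrocytes. In the mouse genome build mm10, Mal lies at chr2:127633226-127656695, Mog at chr17:37010743-37023398 and Mag at chr7:30899176-30914873, all on the minus strand. Ermn lies at chr2:58045113-58052864 on the minus strand and Mobp at chr9:120149707-120181484 on the plus strand.

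Most member cells came from the younger tumors. Mouse 4 held 160 members among 2073 kept cells, or 7.72% (95% exact Clopper-Pearson interval 6.61 to 8.95%). Mouse 5 held 46 of 1348, or 3.41% (2.51 to 4.53%). In mouse 6, 0 of 2388 cells met the rule, which allows a share of up to 0.126% when 3 cells are taken as the limit of a count of 0, and up to 0.154% by the exact interval. Mouse 7 held 30 of 3376, or 0.889% (0.6003 to 1.266%). Both P43 tumors lay above both P70 tumors, and 206 of the 236 cells (87.3%) were of P43. The mean share was 5.57% ± 3.04 (SD, n = 2) at P43 and 0.444% ± 0.628 (SD, n = 2) at P70. The difference of -5.12 percentage points had an exact two-sided permutation p = 0.333, the smallest that 2 mice against 2 can give. Intervals and limits here cover counting error only.

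**Figure D1:**
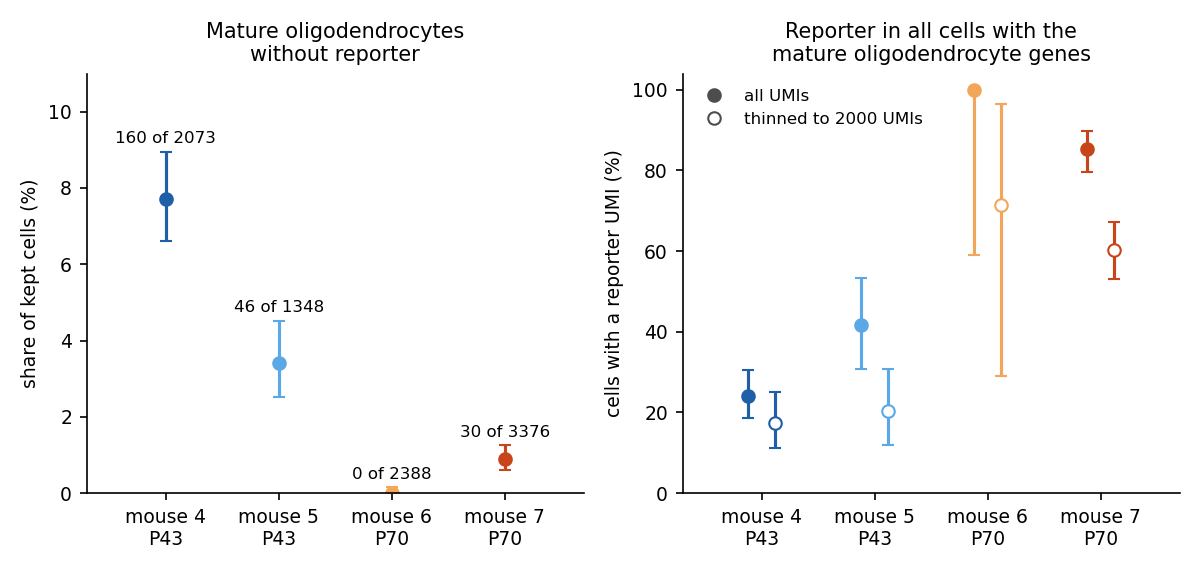
Left, share of kept cells that were mature oligodendrocytes without reporter (percent) in each mouse, with exact 95% binomial intervals and the counts above each point. Right, share of cells meeting every other condition of the rule that carried a reporter UMI (percent), with all UMIs (filled) and with each cell thinned to 2000 UMIs (open). Shares of members run from 7.72% in mouse 4 to 0 of 2388 cells in mouse 6, and reporter shares from 24.2% in mouse 4 to 100% of 7 cells in mouse 6.

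The reporter condition removed a smaller share of the cells at P43 than at P70. Of the cells that met every other condition, 51 of 211 in mouse 4 carried a reporter UMI (24.2%, 18.6 to 30.5%) and 33 of 79 in mouse 5 (41.8%, 30.8 to 53.4%). At P70 these were 7 of 7 in mouse 6 (100%, 59.0 to 100%) and 174 of 204 in mouse 7 (85.3%, 79.7 to 89.9%). The mice did not overlap between ages, with means of 33.0% ± 12.4 and 92.6% ± 10.4 (SD, n = 2 each) and an exact two-sided permutation p = 0.333, again the smallest possible. With each cell thinned to 2000 UMIs, the shares were 17.3%, 20.3%, 71.4% and 60.3% of 127, 79, 7 and 199 cells, in the order of the mouse numbers. The direction between the ages was kept.

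A reporter UMI can also come from free RNA in the droplet. Myeloid cells, which the hGFAP-driven Cre should not reach, carried a reporter UMI in 8.70% of 23, 10.5% of 38, 8.04% of 460 and 14.4% of 97 cells in mice 4 to 7, and endothelial cells in 20.2%, 9.96%, 15.2% and 15.8%. The median depths in mouse 4 were 3486 UMIs in the cells with mature oligodendrocyte genes, 5479 in myeloid and 2903 in endothelial cells. In mouse 7 they were 8355, 2718 and 2117. The 24.2% of mouse 4 lay within the interval of the endothelial background, 16.0 to 24.98%. After thinning to 2000 UMIs, endothelial cells carried a reporter UMI in 11.6%, 5.47%, 7.89% and 10.0%. At that depth the 17.3% of mouse 4 lay above the endothelial interval of 7.86 to 16.4%, and its own interval of 11.2 to 25.04% overlapped it. With at least 2 reporter UMIs required, the share in mouse 4 was 12.3% against 7.25% (4.70 to 10.6%) in endothelial cells. Other oligodendrocyte lineage cells, which did not meet all the conditions on Mal, Mog, Ermn, Mag and Mobp, carried a reporter UMI in 79.5%, 95.1%, 90.3% and 93.2%.

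At shallow depth a cell with the transgene can also lack a reporter UMI. Members had a median of 2121.5 UMIs in mouse 4 (1007 to 23488), 12003 in mouse 5 (2442 to 27695) and 5734.5 in mouse 7 (1772 to 10006). A zero says less in a shallow cell, and 99 of the 160 members of mouse 4 had fewer than 5000 UMIs, against 7 of 46 in mouse 5 and 13 of 30 in mouse 7. At the summed level of cells with the same mature genes and at least 2 reporter UMIs, a cell of the median member depth would hold 1.64 reporter UMIs in mouse 4, 16.9 in mouse 5 and 6.22 in mouse 7. These values lean high, since the cells were chosen for their reporter UMIs. By depth alone, a 0 thus says least in mouse 4. Depth does not take in the share of such cells with a reporter UMI, which was highest of the 3 mice in mouse 7, at 85.3%. How many members carry the transgene without a reporter UMI was not tested. The cells just outside the rule, with exactly 1 reporter UMI, numbered 25, 15, 1 and 39 in mice 4 to 7, and in mouse 7 they outnumbered the 30 members. Their level of Mbp, the basic protein of myelin, was 5536 CPM in mouse 4 and 4919 in mouse 5, beside 5434 and 4827 in the members. In mouse 7 it was 6152 beside 7072. At the other limits, 4 members of mouse 4 had exactly 2 Mal UMIs and 2 cells had 1, and 23 members had exactly 1 Mog UMI and 18 cells had 0. In the same mouse, members with 2 of Ermn, Mag and Mobp numbered 15 and cells just outside with 1 of them numbered 1.

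All levels in CPM are UMIs of a gene summed over the cells of a mouse and scaled to 1000000 UMIs of these cells in all. With 3′ tags each molecule counts once, so levels do not scale with transcript length. The member sums were 886566 UMIs in mouse 4, 563233 in mouse 5 and 157809 in mouse 7, so values of mouse 7 carry the widest counting error. Members are compared below with cells that met the same mature gene conditions but held at least 2 reporter UMIs (26, 18, 6 and 135 cells in mice 4 to 7). Since the rule chose members by reporter and by myelin genes, these comparisons are descriptions without a test.

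Genes near the transgene insertion site were, as a sum, lower in members than in the reporter cells. Rosa26 lies at chr6:113067428-113077333 on the minus strand of mm10. Within 500 kb of its start, 15 genes reached a mean of 20 CPM over mice 4, 5 and 7 in members or in the reporter cells, a window and limit chosen after values had been seen. Their sum was 653 CPM in members of mouse 4, 508 in mouse 5 and 627 in mouse 7. In cells with the same mature genes and the reporter it was 2108, 4157 and 990 CPM. Endothelial cells held 1349, 968 and 784 CPM. Of the 15 genes, 5 reached the limit in the reporter cells alone and so had to be higher there on average. Over the other 10 genes the sums were 592, 479 and 577 CPM in members and 1941, 3748 and 897 CPM in the reporter cells, with the widest gap in mouse 5 and the narrowest in mouse 7.

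Thumpd3, whose end overlaps the far end of Rosa26 from the opposite strand, had 25.9, 16.0 and 38.0 CPM in members of mice 4, 5 and 7, and 199, 409 and 168 CPM in the reporter cells. Setd5, a chromatin regulator that starts beside Rosa26, had 89.1, 65.7 and 127 CPM against 333, 456 and 292. For both genes, all 3 mice were lower in members. Arpc4, a subunit of the Arp2/3 actin complex, had 80.1, 37.3 and 101 CPM against 304, 598 and 72.2. It was lower in members at P43 and not in mouse 7. Other genes near the site went the other way. Camk1, a calmodulin-dependent kinase, had 34.97, 42.6 and 19.0 CPM in members against 15.3, 14.5 and 15.2 in the reporter cells, higher in members of all 3 mice. Mtmr14, a phosphoinositide phosphatase, had 21.4, 17.8 and 50.7 CPM against 45.96, 72.6 and 11.9, lower in members at P43 and higher in mouse 7.

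**Figure D2:**
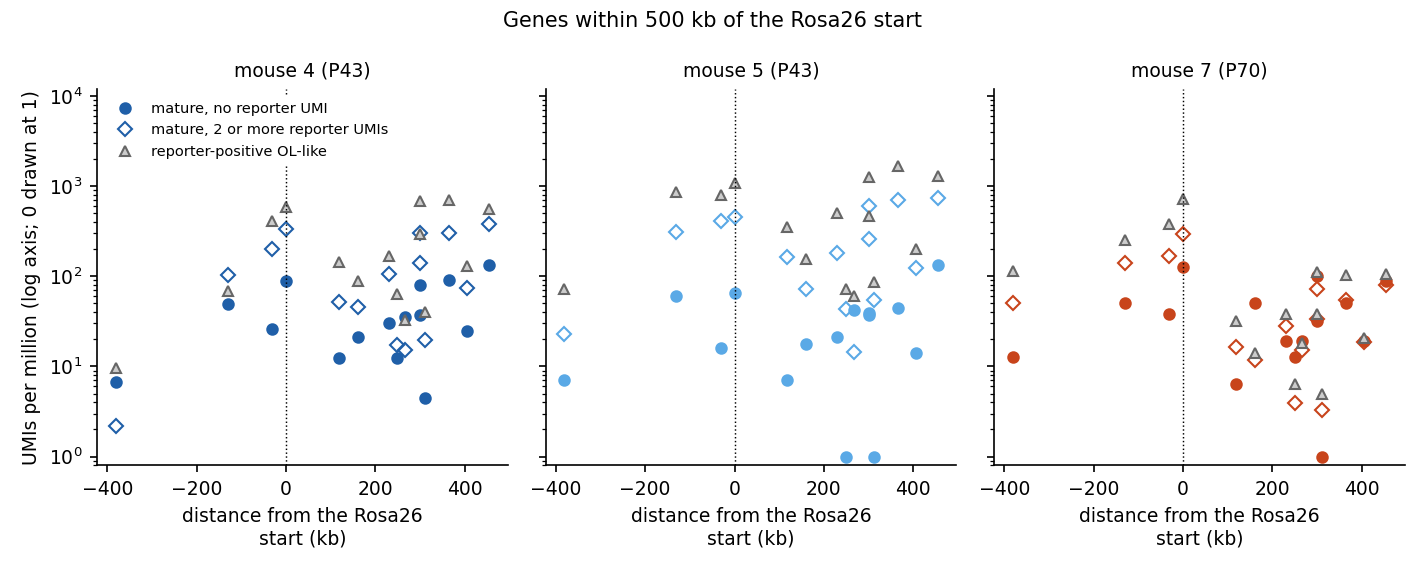
Levels (CPM, log axis, 0 drawn at 1) of 15 genes by distance of their start from the Rosa26 start (kb), in members (filled), cells with the same mature genes and at least 2 reporter UMIs (open diamonds) and other reporter-positive oligodendrocyte lineage cells (grey triangles). Of the 10 genes with a mean of at least 20 CPM in members, members lie below the reporter cells for 9 (mouse 4), 9 (mouse 5) and 6 (mouse 7). The share of all genes that lie lower in members was not computed, so these counts are not read as particular to the site.

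The deleted gene itself gave 22.6, 23.1 and 50.7 CPM of Trp53 in members of mice 4, 5 and 7. A 3′ tag beyond the floxed exons can be counted from a deleted allele, so this level checks nothing. Mdm2, a target of p53, had 117, 123 and 69.7 CPM, and Cdkn1a, another, had 19.2, 0 and 0. Endogenous Mycn was at 2.26, 1.78 and 6.34 CPM.

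The genes with the highest ratio to other kept cells included further genes of oligodendrocytes. The rule chose members by myelin genes, so these ratios describe that choice and do not test the label. Outside the rule, Car2, a carbonic anhydrase of oligodendrocytes, was 22.7-fold above other kept cells after adding 10 CPM to both, Opalin, a myelin membrane protein, 21.9-fold and Tspan2, a tetraspanin of myelin, 20.1-fold. Hapln2, a link protein of the node of Ranvier, was 20.5-fold above, and Aspa, the enzyme that splits N-acetylaspartate, 19.4-fold. Others among the genes with the highest ratio were Sez6l2, Aplp1, Ttll7, Edil3, Pcdh9, Stmn4, Ptprd, Pdlim2, Ptgds and Serpinb1a, between 16.2-fold and 29.0-fold, and the rule genes Mal, Mog, Ermn and Mag.

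Mal, the rule gene with the highest level, had 13478 CPM in members of mouse 4, 11773 in mouse 5 and 2706 in mouse 7. Among single members of mouse 4 it ran from 387 to 39205 CPM with a median of 10656. In mouse 5 it ran from 2872 to 26163 CPM with a median of 9338. In mouse 7 it ran from 199.9 to 7849 CPM with a median of 2733, so the cells of mouse 7 overlapped the lower part of the P43 mice. The mature cells with reporter had Mal medians of 1808, 700.03 and 732 CPM. Mbp did not separate the cells in this way, with medians of 4791, 4485 and 5933 CPM in members and 5543, 4636 and 5133 CPM in the mature cells with reporter.

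**Figure D3:**
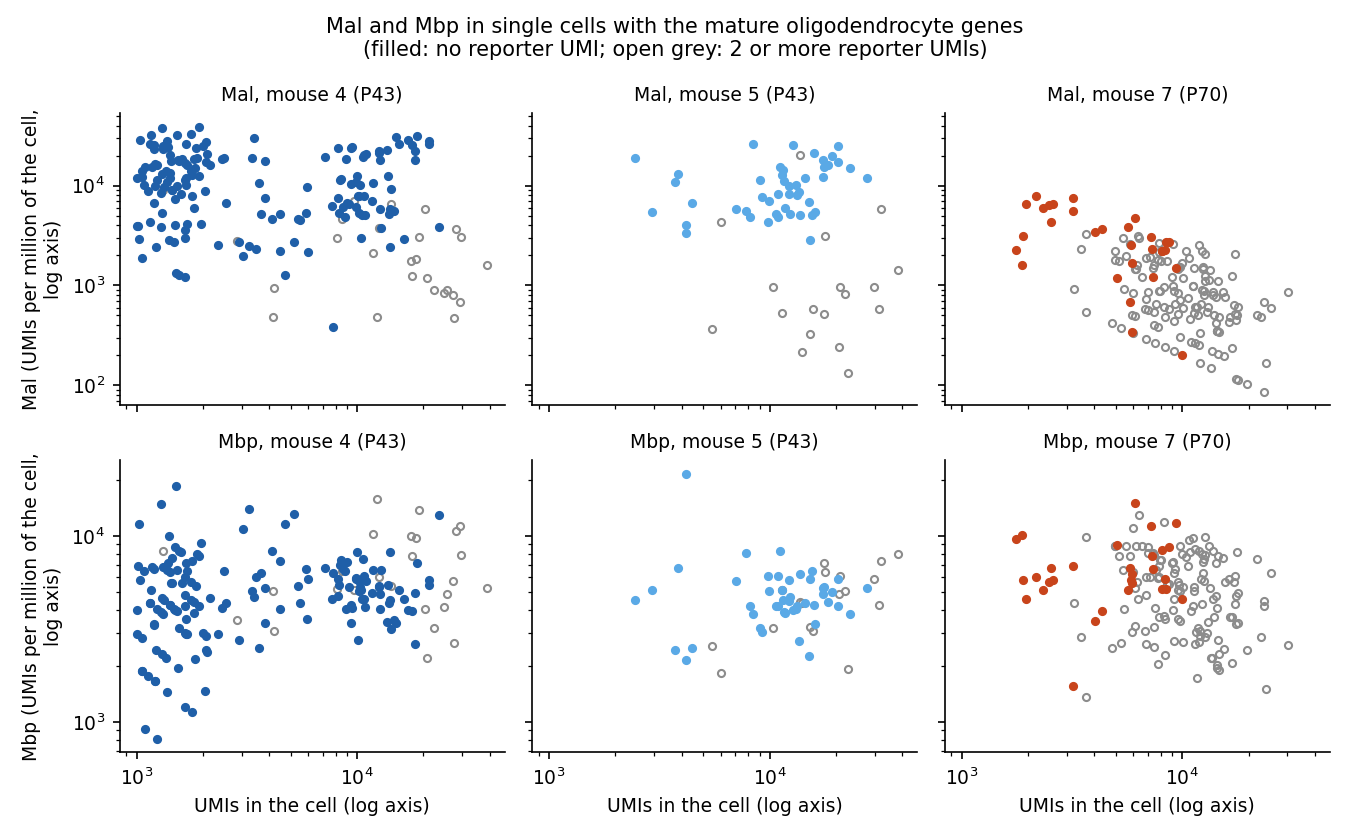
Mal (top) and Mbp (bottom) in single cells (CPM of the cell, log axis) by the number of UMIs of the cell (log axis), for members (filled) and cells with the same mature genes and at least 2 reporter UMIs (open grey), in mice 4, 5 and 7, with 1 member of mouse 4 at 0 Mbp not drawn. Mal medians of members are 10656, 9338 and 2733 CPM, Mbp medians are 4791, 4485 and 5933 CPM, and mouse 7 has no member above 10006 UMIs.

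Markers of other cells were low. The 7 astrocyte genes summed to 65.4, 105 and 19.0 CPM in mice 4, 5 and 7, led by the transporter Slc1a3, and Aqp4, Aldh1l1 and Gja1 were at 0 in all 3. The 11 myeloid genes summed to 7.90, 0 and 0 CPM, led by Fcer1g in mouse 4, with P2ry12, Tmem119 and Cx3cr1 at 0. The 8 endothelial genes summed to 56.4, 17.8 and 19.0 CPM, led by Kdr, Cldn5 and Itm2a, and the 7 mural genes to 13.5, 3.55 and 0, led by Vtn in mouse 4 and Rgs5 in mouse 5. C1qa, C1qb, Cldn5 and Rgs5 were limited by the rule. Of the 11 OPC genes, Pdgfra was at 0 in all 3 mice, and the sum was 42.9, 23.1 and 101 CPM, led by Cspg5 at P43 and Vcan in mouse 7. The 5 T and NK cell genes and the 4 erythroid genes were at 0 throughout. The 3 B cell genes gave 1 UMI in all, and the 5 neutrophil genes 2 UMIs. Foxj1 was the single ependymal gene found of 4, at 32.7 and 35.5 CPM at P43 and 0 in mouse 7. It was called lower at P70 in the age test described below.

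RNA of the neuron list was the exception in mice 4 and 7, and not in mouse 5. The 9 neuron genes in the features summed to 164 CPM in mouse 4, 26.6 in mouse 5 and 469 in mouse 7. In mouse 4 the leading gene was Syt1, a synaptic vesicle protein, and the sum was 654 CPM in members under 5000 UMIs and 36.9 CPM in those above. There, 17 of 160 members held 2 or more neuron genes. In mouse 7 the tubulin Tubb3 made up 431 of the 469 CPM, found in 13 of 30 cells with 45.6% of its UMIs in 1 cell. Rbfox3, Gad1 and Nrgn were at 0 in all 3 mice, and Snap25, Stmn2 and Slc17a7 were at 0 in mice 5 and 7. The part of this RNA in the results below was not tested beyond leaving out cells with 2 or more neuron genes.

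Age was not part of the rule. It could be tested in 3 mice, mice 4 and 5 against mouse 7, since mouse 6 had 0 members. The edgeR quasi-likelihood test on UMI sums per mouse then has 1 residual degree of freedom and takes the single P70 mouse to vary like the P43 mice. Age therefore cannot be told apart from what is particular to mouse 7, including its library depth and its median of 6.70% mitochondrial UMIs in members, against 4.58% and 4.95% at P43. Mouse 7 also had a reporter UMI in 85.3% of the cells with the mature genes, against 24.2% in mouse 4 and 41.8% in mouse 5.

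Across 7453 genes outside the rule, 406 (5.45%) passed an adjusted p of 0.05, of which 200 (2.68%) were higher and 206 (2.76%) lower at P70. The median log2 fold change over all genes was -0.05. Of the lower genes, 23 had 0 UMIs in mouse 7. DESeq2 gave an adjusted p for 1380 of the genes and called 121 of them, 118 of which edgeR also called. Among the listed genes below, DESeq2 did not call Plekhb1, Cntn2, Kcnj10, Omg, Gpr37, Fgfr2, Sox8, Hspa5, Hsph1, Enpp6 and Vim, with adjusted p from 0.0590 to 0.198. Other listed genes had no adjusted p from DESeq2, among them B2m and Foxj1. It gave an adjusted p for 2 of 9 genes of the premyelinating stage. For genes of the integrated stress response and p53 this was 1 of 9. Without normalization factors 59.7% of calls were higher at P70, against 49.3% with them. Among members with at least 5000 UMIs, 798 genes were called and 389 of the 406 were among them. In these deeper cells some genes named below had other levels in mouse 7, with Pmp22 at 16.2 CPM, Hapln2 at 40.5, Slc16a1 at 8.10, Scd1 and Sox8 at 24.3 each, and Grm3 and Jph4 at 0. With reporter cells admitted, 2163 genes were called.

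Several genes of a list on myelin structure, which also holds cytoplasmic proteins, fell between P43 and P70. Of 16 genes tested, 7 fell (2.76% of all genes did) and the median log2 fold change was -0.84. In 14 of the 16, mouse 7 lay below both P43 mice, as it did in 40.0% of all genes. Gpm6b, a membrane glycoprotein, had 1510, 1502 and 507 CPM in mice 4, 5 and 7 and fell by 1.66 on the log2 scale (SE 0.28, edgeR adjusted p = 0.000256). Cldn11, which seals the myelin lamellae, had 2707, 2708 and 1565 CPM and fell by 0.88 (SE 0.25, edgeR adjusted p = 0.0289). Pmp22, better known from peripheral myelin, had 273, 332 and 69.7 CPM, and 11.8% of its UMIs in mouse 5 came from 1 cell. For each of these genes both P43 mice lay well above mouse 7. Tspan2, Qdpr, a cytosolic reductase, Plekhb1 and Pllp were the other genes that fell.

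Mbp and Cnp, also abundant in myelinating cells, did not pass the test. Mbp, the basic protein that compacts the cytoplasmic faces of myelin, had 5434, 4827 and 7072 CPM, with mouse 7 above both P43 mice and a log2 fold change of 0.37 (SE 0.23, edgeR adjusted p = 0.381). Cnp, an enzyme of the inner tongue and the myelin channels, had 5715, 5749 and 4512 CPM and a log2 fold change of -0.43 (SE 0.23, edgeR adjusted p = 0.31). The ratio of P70 to mean P43 levels was 0.787 for Cnp and 1.38 for Mbp.

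**Figure D4:**
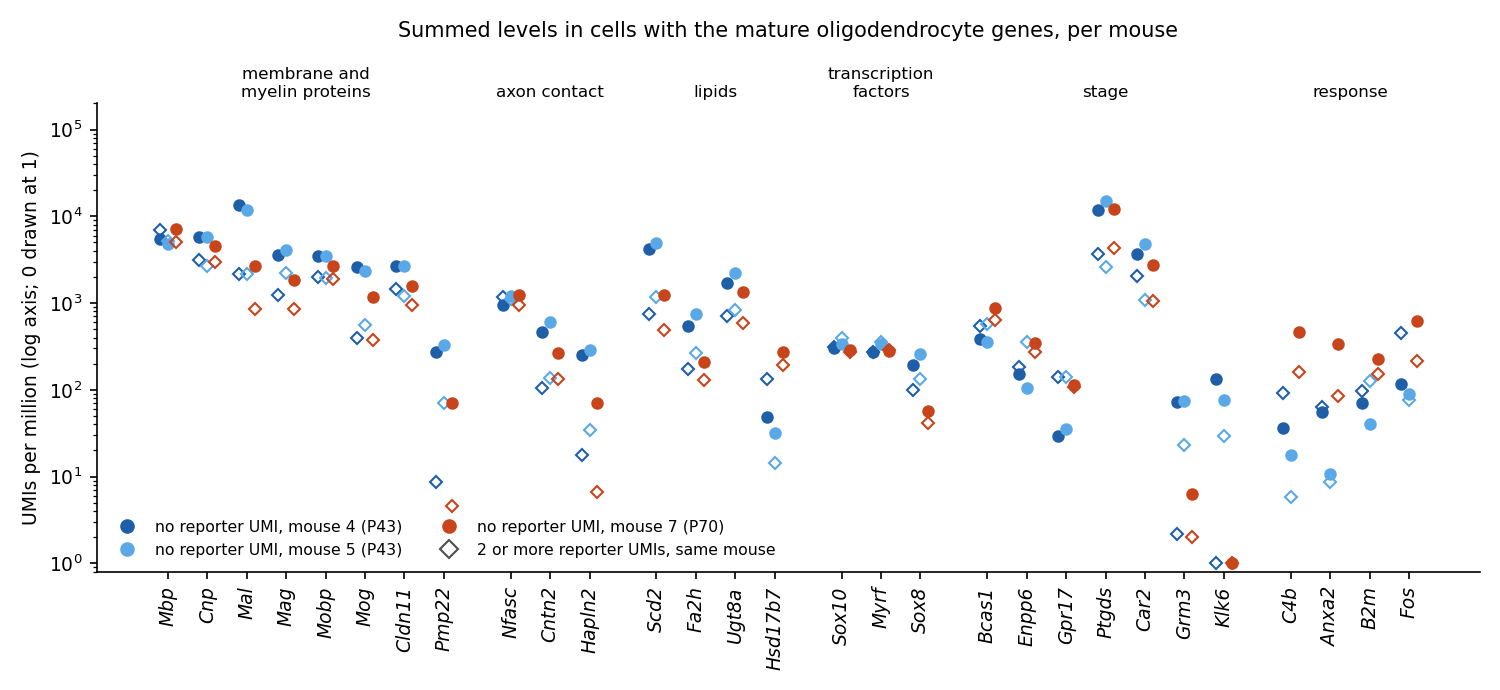
Levels (CPM, log axis, 0 drawn at 1) of genes grouped by role in members (filled circles) and in cells with the same mature genes and at least 2 reporter UMIs (open diamonds), for mouse 4 (dark blue), mouse 5 (light blue) and mouse 7 (red). In members, Pmp22, Scd2 and Klk6 are lowest in mouse 7, Mbp, Bcas1 and C4b are highest there, and Sox10 has 302, 337 and 285 CPM.

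Genes of the axon contact and of the node fell in 5 of 15 tested (2.76% of all genes fell), with a median log2 fold change of -0.84. Cntn2, an adhesion protein of the juxtaparanode, had 467, 607 and 266 CPM, and Hapln2 had 252, 284 and 69.7 CPM and fell by 2.02 (SE 0.41, edgeR adjusted p = 0.00205). Kcnj10, a potassium channel, Slc16a1, a lactate transporter that feeds axons, and Omg, an inhibitor of neurite growth, were the other 3. The call of Slc16a1 (adjusted p = 0.0489) was lost without normalization factors (0.0536) and without the cells holding 2 or more neuron genes (0.0891). Nfasc, which anchors the paranode, did not pass, with 961, 1207 and 1248 CPM and mouse 7 above both P43 mice.

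Of 15 genes of myelin lipid synthesis, 4 fell (2.76% of all genes did) and the median log2 fold change was -0.69. Scd2, a desaturase that makes oleic acid for myelin, had 4149, 4900 and 1223 CPM and fell by 1.98 (SE 0.27, edgeR adjusted p = 1.06e-05). Fa2h, which hydroxylates the fatty acids of galactolipids, had 545, 753 and 209 CPM and fell by 1.72 (SE 0.33, edgeR adjusted p = 0.00129). Enpp2 and Scd1 also fell. Ugt8a, the galactosyltransferase of the same pathway, had 1704, 2234 and 1343 CPM and did not pass.

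Of 21 genes of cholesterol synthesis tested, 1 was called (5.45% of all genes were) and the median log2 fold change was -0.23. The called gene, Hsd17b7, had 48.5, 31.96 and 272 CPM and rose by 2.62 on the log2 scale (SE 0.35, edgeR adjusted p = 8.65e-06). It was found in 15 of 30 cells of mouse 7, with 27.9% of its UMIs in 1 cell, and its level there was 171 CPM without the cells holding 2 or more neuron genes. Hmgcs1, the most abundant gene of the list, had 596, 506 and 425 CPM.

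Of 12 transcription factors of the lineage, 1 was called (5.45% of all genes were), and the median log2 fold change was -0.69. Sox10 had 302, 337 and 285 CPM and Myrf, which switches on myelin genes, had 270, 339 and 279 CPM. Neither passed the test. Sox8 had 195, 261 and 57.0 CPM and fell by 2.07 (SE 0.45, edgeR adjusted p = 0.00373).

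Of 9 genes of the premyelinating stage tested, 3 rose (2.68% of all genes did), and the median log2 fold change was 1.16. Mouse 7 lay above both P43 mice in 6 of the 9 and below both in 3, which were Fyn, Lims2 and Tmem163 and did not pass. Bcas1, a marker of cells that begin to myelinate, had 387, 352 and 881 CPM and rose by 1.16 (SE 0.25, edgeR adjusted p = 0.00364). Enpp6, a choline phosphodiesterase of newly formed oligodendrocytes, had 151, 105 and 342 CPM. Gpr17, a receptor of the stage before myelination, had 29.3, 35.5 and 114 CPM and was found in 11 of 30 cells of mouse 7. In each of the 3 genes mouse 7 lay above both P43 mice. With reporter cells admitted, Gpr17 did not pass (adjusted p = 0.149).

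Of 11 genes of late mature subtypes, 6 fell (2.76% of all genes did), 1 rose (2.68% of all genes did) and the median log2 fold change was -1.02. Klk6, a serine protease of one mature subtype, had 132 and 76.3 CPM at P43 and 0 in mouse 7. Against the floor of 3 UMIs it was at least 5.48-fold lower. At P43 it was found in 15 of 160 and 10 of 46 cells, with 32.5% and 48.8% of its UMIs in 1 cell each. Grm3, a glutamate receptor, had 72.2, 74.6 and 6.34 CPM, the last from 1 UMI, and Jph4 had 159, 241 and 31.7 CPM. S100b, Trf, the iron carrier transferrin, and Apod also fell. Anxa5 rose, with 72.2, 40.8 and 285 CPM.

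Ptgds, the prostaglandin D synthase of mature oligodendrocytes, was in the same list and did not pass. It had 11890, 15129 and 12192 CPM, with mouse 7 between the P43 mice and a log2 fold change of -0.24 (SE 0.24, edgeR adjusted p = 0.64). The mature cells with reporter held 3695, 2572 and 4358 CPM of it. Car2 had 3710, 4783 and 2763 CPM and did not pass either (edgeR adjusted p = 0.0906).

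Of 11 receptor and signalling genes, 4 fell (2.76% of all genes did) and the median log2 fold change was -0.86. Lpar1, a receptor of lysophosphatidic acid, had 742, 911 and 253 CPM and fell by 1.79 (SE 0.31, edgeR adjusted p = 0.000406). Gpr37, Fgfr2 and the actin-severing protein gelsolin (Gsn) fell as well, Gsn not without normalization factors (adjusted p = 0.0722).

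**Figure D5:**
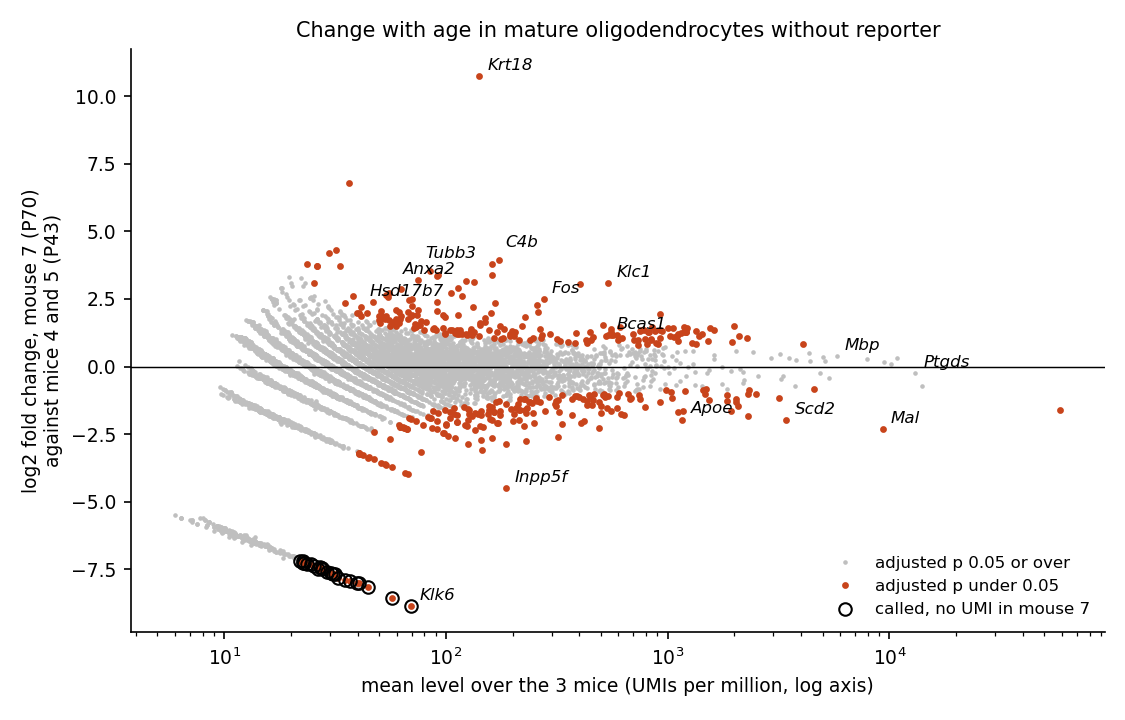
log2 fold change of mouse 7 (P70) against mice 4 and 5 (P43) by mean level over the 3 mice (CPM, log axis) in members, for all genes tested, with genes past an adjusted p of 0.05 in red and those of them with 0 UMIs in mouse 7 ringed. Apoe, Scd2 and Inpp5f lie below the line and C4b, Tubb3 and Klc1 above it, and Mal is a gene of the rule and not counted among the 406 calls.

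Of 11 genes known from oligodendrocytes in disease and inflammation, 7 were tested and 4 rose (2.68% of all genes did). All 7 had mouse 7 above both P43 mice, as 44.9% of all genes had. The median log2 fold change was 1.39. C4b, a complement component at chr17:34728380-34743882 (minus strand), had 36.1, 17.8 and 469 CPM and rose by 3.94 (SE 0.33, edgeR adjusted p = 1.52e-09). It was found in 16 of 160, 7 of 46 and 12 of 30 cells, and 25.7% of its UMIs in mouse 7 came from 1 cell. Anxa2, a membrane-binding annexin, had 55.3, 10.7 and 336 CPM. A UMI of it was found in 20 of 30 members of mouse 7, and also in 11 of 19 endothelial cells, which express the gene, and in 6.19% of 97 myeloid cells. Socs3, a brake on cytokine signalling, had 6.77, 0 and 82.4 CPM, and the intermediate filament Vim had 158, 65.7 and 323 CPM. In mature cells with reporter, C4b had 91.9, 5.81 and 160 CPM.

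Calls in other groups of response genes follow, and differences between groups were not tested. Over all genes, 2.68% were called higher and 2.76% lower. Of 3 genes of MHC class I tested, B2m, its invariant chain, rose with 69.9, 40.8 and 228 CPM. Of 5 interferon genes, edgeR called 0 at the adjusted limit and 3 at an unadjusted p under 0.05, and DESeq2 called 0 of 1 gene with an adjusted p. Of 11 immediate early genes, Fos alone was called, with 117, 88.8 and 621 CPM. In members with at least 5000 UMIs it had 56.8, 91.2 and 316 CPM. Its call was lost with reporter cells admitted (adjusted p = 0.176). Of 10 heat shock genes Hspa5 and Hsph1 fell, Hspa5 not with reporter cells admitted (adjusted p = 0.275), and of 9 genes of the integrated stress response and p53 Ddit4 and Ddit3 fell. Of 9 iron and antioxidant genes, Tfrc, the transferrin receptor, rose with 41.7, 24.9 and 158 CPM. Fth1, the ferritin heavy chain and one of the most abundant RNAs of the cells, had 16454, 15276 and 10171 CPM and did not pass. Ribosomal protein genes were added as a list after values had been seen. Of 86, 51 rose and the median log2 fold change was 0.97.

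Several of the largest rises had a narrow base in cells. Krt18, a keratin, had 0 UMIs at P43 and 425 CPM in mouse 7, but 98.5% of its UMIs lay in 1 of 2 cells. Penk, the enkephalin precursor, had 0, 1.78 and 108 CPM, with 94.1% of its UMIs in 1 cell. Tubb3 had 37.2, 17.8 and 431 CPM. Capn6, Flnc, Thsd4, Eif4ebp1 and Bcan reached 63.4 to 88.7 CPM in mouse 7 and were found in 4 to 8 of its 30 cells. Socs3 and C4b completed the 10 largest rises.

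The 10 genes with the lowest fitted log2 fold change all had 0 UMIs in mouse 7, where the fitted value depends on the prior count and does not rank the falls. Besides Klk6 they were Hsd17b11 (at least 4.52-fold lower), Sppl2b (3.50), H2-Ab1 (3.20), Rapgef5 (3.15), Cxcl12 (2.93), the pseudogene Rps18-ps6 (2.77), Tac1 (2.57), Plekhh2 (2.50) and Gm42372 (2.46), each as a lower bound against 3 UMIs. Reads of a pseudogene can be shared with its parent gene, so Rps18-ps6 is uncertain. Among genes with UMIs in mouse 7, Inpp5f and Jph4 had ratios of P70 to mean P43 levels of 0.0464 and 0.158. These are point values from few UMIs and cannot be ranked against the bounds, which use a floor of 3 UMIs.

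Genes outside the fixed lists were looked at after their values were seen. Cdkn2a, which encodes the p16 and p19Arf tumor suppressors, had 57.5, 3.55 and 279 CPM in members and rose by 2.91 (SE 0.50, edgeR adjusted p = 0.000371). It was found in 21 of 160, 2 of 46 and 17 of 30 cells. In mature cells with reporter it had 245, 163 and 331 CPM, so members of mouse 7 were near the reporter cells and P43 members well below them. Inpp5f, a phosphoinositide phosphatase, had 241, 305 and 12.7 CPM (edgeR adjusted p = 1.31e-05). The last value is 2 UMIs, and the ratio of P70 to mean P43 levels was 0.0464 with a counting interval of 0.00561 to 0.167. Apoe, a lipid carrier also abundant in astrocytes and microglia, had 1243, 1825 and 418 CPM. Klc1, a kinesin light chain, had 180, 112 and 1331 CPM and was found in 24 of 30 cells of mouse 7. In the endothelial cells of mouse 4, a UMI of Cdkn2a was found in 27 of 331 cells (8.16%) and one of C4b in 0, and in its 23 myeloid cells C4b was found in 3 (13.0%, against 10% of its members). In mouse 7 a UMI was found in 11.3% of the myeloid cells for Klc1, 8.25% for Cdkn2a, 4.12% for Gpr17 and 3.09% each for Tubb3 and Hsd17b7. For C4b it was found in 0 of 97. The median depth of these myeloid cells was 2718 UMIs, against 5734.5 in members. At that depth the 0 does not limit the share of cells that express C4b.

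Whether these changes were particular to the members was tested against other reporter-positive oligodendrocyte lineage cells of the same mice, with the mouse as a block. These cells held at least 2 reporter UMIs, Bcas1 and at least 1 of Olig1, Olig2 and Sox10. They did not meet all the conditions on Mal, Mog, Ermn, Mag and Mobp, which members had to meet. They numbered 108, 38 and 583 in mice 4, 5 and 7. The change with age differed for 140 of 9546 genes (1.47%), 70 in each direction (0.733% each). These include 4 of the 15 genes near Rosa26, all with a more upward change in members. The lineage cells were chosen by the reporter at that locus, so these 4 calls are not read as results. Calls of myelin genes cannot be told apart from the conditions on mature genes, by which members and lineage cells were separated. Without a filter on low counts 1 gene differed, and without normalization factors 37 did.

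Scd2 (-2.13), Fa2h (-1.82), Enpp2 (-1.41), Gpm6b (-1.62), Cntn2 (-2.36), Lpar1 (-2.26) and Trf (-1.36) had a more downward change, given as the interaction log2, in members than in the lineage cells (edgeR adjusted p from 3.41e-05 to 0.0472). In all, 6 of 16 genes of the myelin structure list differed in this direction, among them Qdpr and Pmp22. Without a filter on low counts most of these calls were lost. Ribosomal protein genes, the longest list and one added after values had been seen, had the most calls by count, but not by share. Of 86, 26 differed, all with a more upward change in members and with an interaction log2 of 1.24 to 1.86. Tfrc (2.01) and Tubb3 (2.89) also had a more upward change in members. With mouse 4 or mouse 5 left out, which allows no test, these genes kept their direction but some values moved far. Cntn2 became -1.20 without mouse 4 and -4.39 without mouse 5, Lpar1 -3.33 and -1.56, and Pmp22 -3.71 and -8.03. For Cldn11 and Hapln2 the difference did not pass. C4b had 8.01, 9.65 and 76.2 CPM in the lineage cells of mice 4, 5 and 7, and its interaction log2 did not pass (0.91, SE 0.65, edgeR adjusted p = 0.696). Fos likewise had 38.5, 51.0 and 263 CPM there and an interaction log2 of -0.04 (SE 0.46).

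For other genes the larger change was in the lineage cells. Ptgds had the interaction with the lowest p among the genes named, -3.17 (SE 0.36, edgeR adjusted p = 1.42e-14), with 677, 30.3 and 1478 CPM in lineage cells, while the change within members did not pass. Its interaction log2 was -6.08 without mouse 4 and -1.10 without mouse 5, so its size rests on which P43 mouse is used. Kcna1, a potassium channel named after its values were seen, had 464, 376 and 475 CPM in members and 4.01, 4.14 and 44.9 in lineage cells. Genes near Rosa26 are given without a test, since the lineage cells were chosen by the reporter at that locus. Arpc4 had 684, 1265 and 112 CPM in lineage cells. Brk1, just outside the 500 kb window and also named after its values were seen, had 243, 231 and 228 CPM in members and 1705, 2623 and 297 in lineage cells. Among the mature cells with reporter alone, 101 of 7114 genes (1.42%) changed between the mice of the 2 ages, and in the lineage cells 39 of 9525 (0.409%).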

How the data were processed

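The authors made the deposited files with Cell Ranger 6.0.2, according to the submitters' processing notes, on the mouse reference mm10 extended by FLUC and humanNMYC. The deposited values are whole, unnormalized UMI counts for each gene in each barcode, from 3′ v3.1 libraries of 4 tumors. All count columns were used, and 0 were left aside. Cells, members and comparison cells were chosen as the text states, and no doublet caller was run, beyond the limit of 40000 UMIs and the limits on marker genes of other cells. The rule and the gene lists were chosen with earlier results of these data known.

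UMI counts of member cells were summed per mouse, 1 library being 1 replicate, and tested with edgeR 4.0.16 (TMM, filterByExpr, quasi-likelihood test, Benjamini-Hochberg adjustment over all genes tested, limit 0.05) in R 4.3.3, in mice with at least 10 members. The 5 rule genes stayed in the fit, and 4 of them passed, but they were not counted. The SE is the log2 fold change divided by the root of the quasi-likelihood F. DESeq2 1.42.0 was an alternative. When tested on simulated data, in which 200 genes differed 4-fold, 60% of these were found in the age test (7350 genes, 6 false calls) and 43% in the interaction test (9199 genes, 5 false calls). The simulation gave every gene the same spread between mice, so its false calls do not measure those in the data. Shares were compared by exact two-sided permutation over mice (scipy 1.17.1). Nothing states separate batches. In the edgeR tests the spread between mice comes from mice 4 and 5, moderated by values shared across genes. Spread between P70 mice was not measured there.

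Named genes are those of the rule, the listed genes that passed the age test or, where none did, the most abundant ones, the 10 largest rises and falls by fitted value among calls whose mice do not overlap, and the 20 genes with the highest ratio to other kept cells among those with at least 50 CPM in each mouse with 10 members. Other genes named, including listed genes that did not pass where others did, were chosen after their values were seen. Alternatives were other limits for mitochondrial share, UMIs, Mal, reporter and neuron genes, thinning to 2000 UMIs, other normalization, no filter on low counts and leaving out each mouse. Limits of at least 5000 UMIs, and of 1 UMI for each of C1qa, C1qb, Cldn5 and Rgs5, were added after seeing the data. Positions of genes are those of GENCODE vM21 (GRCm38, which is mm10). Meg3, Ighm and Igkc were not analysed here. Some genes are not reported here and were left out of the lists.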

Additional observations from a re-analysis of the deposited data

Results flagged for a closer look

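The change between P43 and P70 differed between member cells and reporter-positive oligodendrocyte lineage cells of the same mice for 140 of 9546 genes by the interaction term of the edgeR quasi-likelihood test with the mouse as a block, 70 in each direction. This difference between groups of cells was tested itself, over mice 4, 5 and 7. It rests on 1 mouse at P70. The 140 include 4 genes near Rosa26, the locus of the reporter by which the lineage cells were chosen. Myelin genes among them cannot be told apart from the conditions on mature genes that separated the groups of cells.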

How the results depend on the processing

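Every alternative kept the lower share of members at P70, and the difference ranged from -7.27 to -2.97 percentage points with 1 mouse left out at a time. The share in mouse 4 became 10.9% and in mouse 5 6.55% among cells with at least 5000 UMIs, the share in mouse 5 became 5.13% after thinning to 2000 UMIs, and the share in mouse 7 became 2.04% with at most 1 reporter UMI allowed. Mouse 6 held 2 members (0.0990%) after thinning and 1 with at least 1 Mal UMI or with at most 1 reporter UMI. The reporter share in cells with the mature genes was 12.3% (mouse 4), 22.8% (mouse 5) and 66.2% (mouse 7) when 2 reporter UMIs were required, and 17.3%, 20.3% and 60.3% after thinning, and its difference ranged from 50.9 to 68.5 points with 1 mouse left out. The count of genes changed with age was 121 by DESeq2, which gave an adjusted p for 230 of the 406 genes, 2163 with reporter cells admitted and 798 in cells with at least 5000 UMIs. It lay between 474 and 532 under the other alternatives with a test. The interaction count was 37 without normalization factors and 1 without a filter on low counts. The causes were not tested. Of 70 named genes, none changed direction. DESeq2 called 22 of the 33 with an adjusted p. Means over the 3 mice of the levels of rule genes and leading genes moved by less than 1 SD, while Ptgds in mouse 4 alone was 9543 CPM as a mean over cells, against 11890. Leaving out mouse 4 or mouse 5 leaves 1 mouse against 1 and gives values with no test. All 70 named genes kept their direction without mouse 5, as did the 64 with a value without mouse 4. Without mouse 7 no P70 mouse is left. No paired analysis was possible because the replicate numbers only name the mice and no mouse was sampled at both ages. At 157809 UMIs, mouse 7 cannot resolve genes below 19.0 CPM.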
